A study of Mus musculus with 32 samples.

Results

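HNF4A sites around the PPAR and RXR genes were taken from HNF4A ChIP-seq of mouse jejunal intestinal epithelial cells (IECs). The 6 genes were Ppara, Ppard, Pparg, Rxra, Rxrb and Rxrg. Peaks of 8 libraries were merged into 1 site wherever they shared at least 1 bp, and a site belonged to a gene when it lay in the gene body or within 20 kb either side. By this rule 54 of the 45552 merged sites belonged to these genes, with 18 at Ppara, 16 at Rxra, 10 at Pparg, 8 at Ppard, 2 at Rxrb and 0 at Rxrg. No site was shared between genes.

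The study asked how a microbiota and a high-fat meal (HFM) together act on IECs. All mice were male C57BL/6J aged 10 to 12 weeks. GF+HFM mice were germ-free and were gavaged with the HFM, a chicken egg yolk emulsion. CV+HFM mice were ex-germ-free animals colonized with a conventional microbiota for 14 days and gavaged with the same meal, and jejunum was collected 2 hours after it in both groups. Each library came from 1 mouse, with 4 libraries per group. The cells were unsorted, and such preparations hold mostly villus epithelium with some crypts and villus mesenchymal cells. Fewer HNF4A-bound cells and less binding per cell cannot be told apart in them. The GF and CV libraries without the meal, and the RNA-seq and H3K27ac libraries, were not analysed here.

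PPARs are nuclear receptors activated by fatty acids and their derivatives, and they bind DNA as heterodimers with an RXR. PPARA drives genes of fatty acid oxidation in enterocytes and liver, PPARD is broadly expressed and also acts in fatty acid metabolism, and PPARG is best known for adipocyte differentiation. The heterodimer binds a direct repeat of the half-site AGGTCA with 1 base between the copies. HNF4A, a receptor that keeps enterocytes differentiated, binds closely related repeats as a homodimer. RXRs also pair with the receptors for bile acids, oxysterols, vitamin D, retinoic acid and thyroid hormone.

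Each deposited list held positions of peaks only, so a site was either called or not called in a library, and peak width gave the only measure of size. A width percentile is the rank of a peak's width among all peaks of its own list, with 100 for the widest. Where a library had more than 1 peak in a merged site, its widest peak there was used. Because the lists differ in length and make-up, percentiles of different libraries describe each list and do not by themselves measure a difference between the groups. Sites are named below by the distance of their midpoint from the start of the gene in mm9, where all 6 genes lie on the plus strand. The GF+HFM lists held 31061 to 36846 peaks and the CV+HFM lists 29345, 9206, 21033 and 4533 peaks in replicates 1 to 4. Read depth is unknown here, so a missing call means that no peak passed the threshold in that library and not that HNF4A was absent.

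The reference sequence of 6 sites is printed here, because calls and widths alone do not show what HNF4A met at these genes. They are the site of each gene called in the most libraries, and the intron 2 site of Ppara at 9.12 kb, chosen by its position with earlier results known. Each is the stretch shared by the peaks of every library that called the site, trimmed to its central 200 bp where longer, and is given 5′ to 3′ on the plus strand of mm9. Capitals mark the 13 bases closest to the AGGTCA repeat on either strand.
Ppara 39.9 kb site, chr15:85604995-85605135: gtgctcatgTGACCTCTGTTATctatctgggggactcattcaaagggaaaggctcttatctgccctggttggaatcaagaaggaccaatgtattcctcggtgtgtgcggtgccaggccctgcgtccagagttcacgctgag
Ppara intron 2 site at 9.12 kb, chr15:85574516-85574651: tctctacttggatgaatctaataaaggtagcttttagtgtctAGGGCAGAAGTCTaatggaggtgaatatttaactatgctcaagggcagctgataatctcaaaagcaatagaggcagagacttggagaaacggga
Ppard 55.0 kb site, chr17:28424746-28424945: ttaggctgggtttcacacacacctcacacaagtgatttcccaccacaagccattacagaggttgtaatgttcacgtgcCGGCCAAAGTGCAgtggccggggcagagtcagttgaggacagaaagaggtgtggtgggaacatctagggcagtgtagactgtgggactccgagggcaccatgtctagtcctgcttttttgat
Pparg 142 kb site, chr6:115453210-115453409: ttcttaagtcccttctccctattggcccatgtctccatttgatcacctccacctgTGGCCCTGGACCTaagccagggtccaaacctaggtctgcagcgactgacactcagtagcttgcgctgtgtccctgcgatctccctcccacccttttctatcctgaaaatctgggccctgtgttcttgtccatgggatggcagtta
Rxra site 4.33 kb upstream, chr2:27527257-27527449: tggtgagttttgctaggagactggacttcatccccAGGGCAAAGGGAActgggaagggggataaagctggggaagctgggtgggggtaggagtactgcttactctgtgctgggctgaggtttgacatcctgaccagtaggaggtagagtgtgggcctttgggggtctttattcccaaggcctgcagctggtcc
Rxrb site 3.97 kb upstream, chr17:34164692-34164891: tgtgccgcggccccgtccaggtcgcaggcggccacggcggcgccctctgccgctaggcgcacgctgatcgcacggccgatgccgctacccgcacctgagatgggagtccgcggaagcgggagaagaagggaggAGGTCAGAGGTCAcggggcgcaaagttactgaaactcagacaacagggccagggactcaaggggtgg
The capitals differ from the repeat at 3 of 12 compared bases in both Ppara stretches, the Pparg stretch and the Rxra stretch, and at 4 in Ppard. The Rxrb stretch matches at all of them. The Ppard stretch also holds CAAAGTGCA, a match to CAAAGNNCA, the core shared by HNF4A elements and such repeats.

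Over all 54 sites these letters were no more frequent than elsewhere. In the 200 bp at the centre of each site, on either strand, CAAAGNNCA occurred in 10 of the 54 sites (18.5%) and in 22.9% of the 45325 merged sites with sequence. By gene it occurred in 4 of 16 Rxra, 3 of 18 Ppara, 2 of 10 Pparg, 1 of 8 Ppard and 0 of 2 Rxrb centres. An AGGTCA repeat with at most 2 mismatches, which can overlap that core, occurred in 6 centres (11.1%) and in 12.9% of all sites. A repeat within 3 mismatches was present in the centres of 41.7% of all sites and says little about a single one. The stretches printed above need not lie in these centres. The 1 Ppard centre with CAAAGNNCA was that of the 57.8 kb site, and the 55.0 kb centre held none. In the centre of the Rxra site 4.33 kb upstream the closest repeat had 5 mismatches. A repeat with no mismatch was rare, in 0.338% of all sites, and the Rxrb site 3.97 kb upstream was the only member with one. That site was a narrow peak called in a single library, and no widely called PPAR or RXR site had a closer match than 2 mismatches in its centre.

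Ppara and Rxra stood near the top of all genes by number of HNF4A sites. The median of 22367 protein-coding genes was 2.00 sites in the same window, and 34.5% of genes had none. Against these, the 18 sites of Ppara ranked at the 99.4th percentile, the 16 of Rxra at the 99.0th, the 10 of Pparg at the 95.3rd and the 8 of Ppard at the 91.5th. Rxrb with 2 sites ranked at the 55.4th and Rxrg, with none, at the 17.3rd. Window length contributes to these numbers. Per 100 kb of window Ppara had 16.7 sites and Rxra 12.6, against a median of 2.20, and ranked at the 97.1st and 93.0th percentiles. Ppard with 7.36 and Pparg with 5.91 sites per 100 kb fell to the 80.4th and 73.9th, and Rxrb with 4.29 rose to the 65.2nd.

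**Figure D1:**
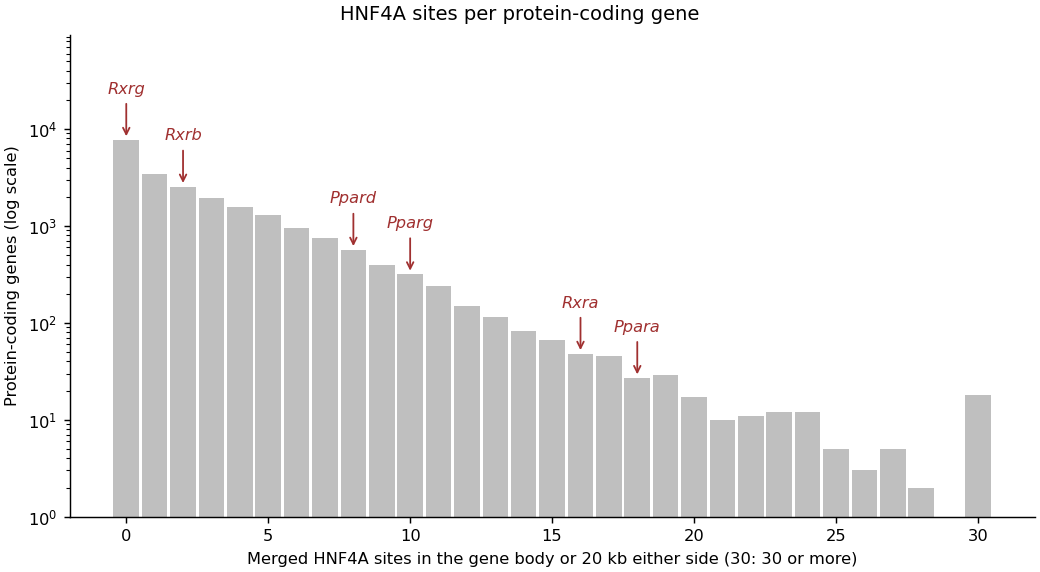
Number of protein-coding genes (y axis, log scale) by number of merged HNF4A sites in the gene body or 20 kb either side (x axis, the last bar holds genes with 30 or more). Arrows mark the 6 receptor genes, from Rxrg with 0 and Rxrb with 2 sites to Rxra with 16 and Ppara with 18.

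The sites lay in introns and upstream sequence. By midpoint, 28 fell in introns, 22 upstream, 3 downstream and 1 in the gene body outside the transcript used for numbering. None fell in an exon of the transcripts so used, and exons of other transcripts were not checked. A transcript start lay inside 5 of the 54, and 7 midpoints were within 1 kb of one. None of the 10 sites called in all 8 libraries spanned a transcript start, but with only 5 such sites this says little. The Ppara site at 0.696 kb, over 3 transcript starts, was called in 7 libraries. The share over all merged sites was not counted.

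**Figure D2:**
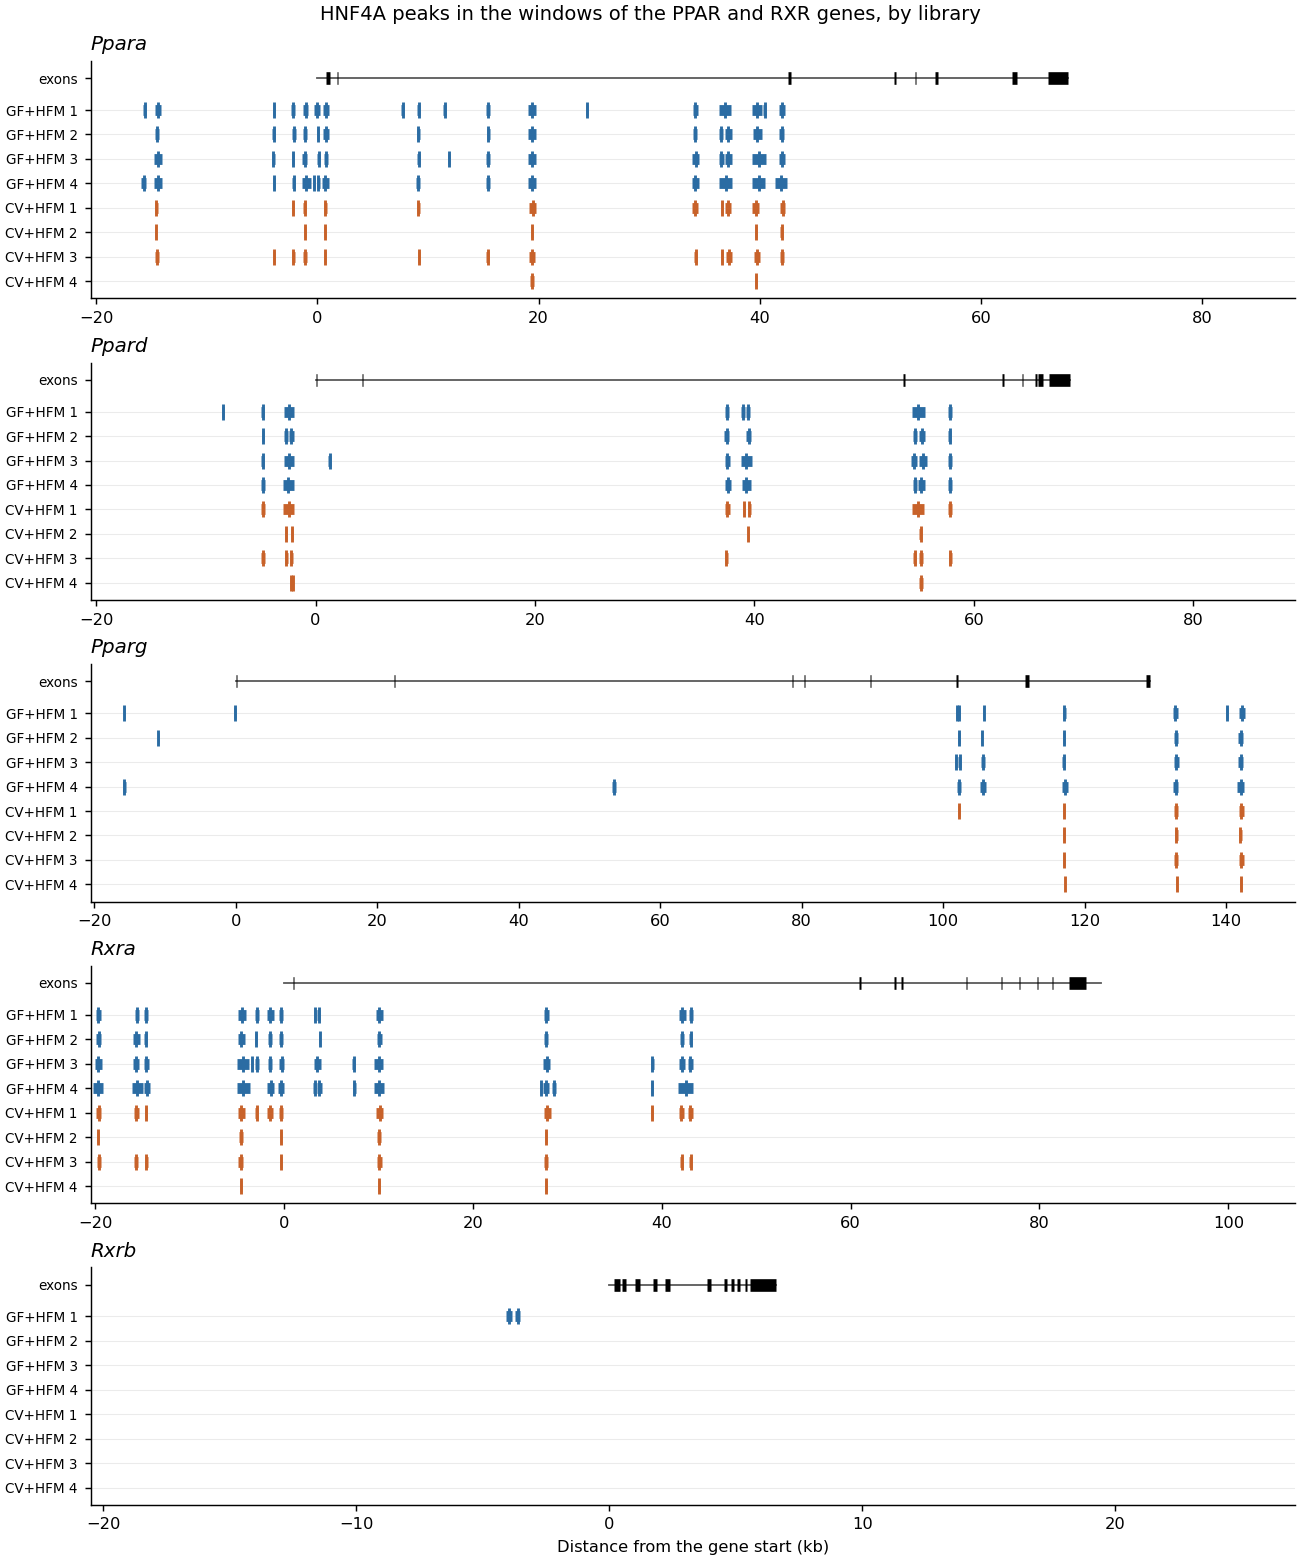
HNF4A peaks of each library (rows, GF+HFM in blue, CV+HFM in orange) by distance from the gene start in kb (x axis) at the 5 genes with a site, with the exons of 1 transcript in black. Each bar is a peak, drawn to scale with a tick at its midpoint. The last Ppara and Rxra sites, at 41.9 and 42.5 kb, lie before the exons that follow intron 2, and the Rxrb panel holds 2 peaks of GF+HFM 1.

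Ppara, the receptor gene with the most sites, lies at chr15:85565413-85633249 (mm9). Its sites ran from 15.7 kb upstream to 41.9 kb, which left the last part of the 67.8 kb gene and the sequence downstream without any. By midpoint, 6 sites lay upstream, 1 at the alternative starts and 11 in intron 2 of Ppara-001, the intron that ends at exon 3. Of the 18, 13 had a peak in every GF+HFM library and 2 in all 8 libraries. Both of these were in intron 2.

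At the Ppara 39.9 kb site (chr15:85604711-85606005) the width percentiles were 97.0, 98.1, 98.4 and 96.5 in GF+HFM 1 to 4 and 91.8, 66.1, 95.5 and 66.2 in CV+HFM 1 to 4. All 4 CV+HFM percentiles were below the lowest GF+HFM one, but ranked among the sites called in every library the groups overlapped. At the 19.4 kb site (chr15:85584457-85585182) they were 93.1, 94.7, 85.0 and 76.6 in GF+HFM and 91.5, 55.9, 91.1 and 94.9 in CV+HFM. Here the groups overlapped, and CV+HFM 2 was the low library.

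At the other Ppara sites of intron 2 with a peak in every GF+HFM library, 1 to 3 of the CV+HFM libraries had one. The site at 41.9 kb had GF+HFM percentiles of 75.2 to 93.1 and 3 CV+HFM calls, at 82.7 to 92.7. The site at 36.9 kb, which spans a transcript start, had 80.5 to 98.9 in GF+HFM with 2 CV+HFM calls at 86.8 and 91.9. The site at 34.2 kb had 71.2 to 80.0 with 2 CV+HFM calls at 50.6 and 83.4. These 3 form a cluster with the 39.9 kb site just before exon 3. The site at 15.4 kb was narrower, at 31.0 to 59.5, with 1 CV+HFM call at 40.5. The 9.12 kb site was narrower still at 14.8 to 33.9, with CV+HFM calls at 32.5 and 5.87. By width it was a lower-ranked site of this gene in every GF+HFM library than 19.4, 34.2, 36.9, 39.9 and 41.9 kb.

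Upstream and at the start of Ppara, every GF+HFM library had a peak at 6 sites. The site with its midpoint 83 bp upstream, which as merged spans the gene start, was called in no CV+HFM library and is described below. Its GF+HFM 2 peak, from 0.008 to 0.177 kb, lay inside the gene. The site at 0.696 kb, over 3 transcript starts, had GF+HFM percentiles of 46.3 to 84.4 and 3 CV+HFM calls at 27.5 to 45.6. The site 0.999 kb upstream had 55.3 to 87.3 and 3 CV+HFM calls at 36.2 to 61.7. The site 14.4 kb upstream had 73.0 to 86.7 and 3 CV+HFM calls at 24.0 to 78.5. The remaining pair were narrow in part of the GF+HFM libraries, at 9.07 to 68.1 with CV+HFM calls at 15.7 and 46.3 for 2.19 kb upstream, and at 6.22 to 32.0 with 1 CV+HFM call at 31.9 for 3.97 kb upstream. Of the 5 remaining Ppara sites, 4 were called in 1 GF+HFM library each and 1, 15.7 kb upstream, in 2.

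Rxra, which encodes RXR alpha, one of the partners of the PPARs, lies at chr2:27531960-27618477. Its 16 sites were split evenly, 8 upstream and 8 in intron 2 of Rxra-201, and ended at 42.5 kb of the 86.5 kb gene. All 4 GF+HFM libraries called 10 of them, and all 8 libraries called 3.

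The Rxra site 4.33 kb upstream (chr2:27526962-27528307) had percentiles of 96.3, 97.4, 98.7 and 97.8 in GF+HFM and 94.3, 98.6, 93.2 and 78.2 in CV+HFM. Its mean over callers, 94.3, was the highest of the 54 sites, and CV+HFM 2 was within the GF+HFM range. The site at 10.0 kb (chr2:27541510-27542498) had 93.3, 87.5, 94.7 and 92.0 against 95.5, 95.7, 87.6 and 91.3, and that at 27.8 kb (chr2:27559381-27560176) had 83.2, 79.1, 85.6 and 76.3 against 94.5, 77.0, 73.0 and 86.7. At both the groups overlapped, and CV+HFM 4, the shortest list, ranked them as highly as the GF+HFM libraries did.

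The remaining Rxra sites with a peak in every GF+HFM library were mostly upstream. The site 19.7 kb upstream had 77.7 to 93.2 with 3 CV+HFM calls at 66.9 to 88.0. The neighbours 15.6 and 14.6 kb upstream had 77.1 to 96.7 and 56.5 to 77.3, each with 2 CV+HFM calls, at 86.0 and 92.0 and at 36.7 and 49.1. Nearer the gene, 1.42 kb upstream had 62.6 to 91.8 with 1 CV+HFM call at 89.9, and 0.310 kb upstream had 60.4 to 73.3 with 3 at 22.8 to 64.0. In intron 2, the 42.5 kb site had 77.7 to 99.1 with 2 CV+HFM calls at 64.0 and 85.7. The 3.55 kb site had no CV+HFM call and is described below. The other 6 Rxra sites were called in 1 to 4 libraries.

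Pparg lies at chr6:115311239-115440419. Its sites fell into a sparse upstream part and a well-called 3′ part: the 4 sites from 15.7 kb upstream to 53.5 kb were each called in 1 or 2 GF+HFM libraries and no CV+HFM library, while the 5 with a peak in every GF+HFM library lay in introns 6 and 7 of Pparg-202 and downstream of the gene. The site 142 kb from the start (chr6:115452718-115453844), downstream of the gene, had percentiles of 96.5, 95.6, 91.6 and 95.3 in GF+HFM and 97.1, 92.5, 98.4 and 82.1 in CV+HFM. The groups overlapped. The downstream site at 133 kb (chr6:115443716-115444587) had 93.8, 90.4, 89.5 and 81.6 against 89.1, 94.1, 93.3 and 38.0, with CV+HFM 4 low. The intron 7 site at 117 kb (chr6:115428028-115428832) had 65.7, 63.4, 60.2 and 85.4 against 55.7, 47.9, 49.1 and 5.01, with no overlap. Ranked among the 3445 sites called in every library, however, it stood at 9.49, 10.0, 8.37 and 44.4 in GF+HFM and 5.36, 22.0, 7.20 and 3.40 in CV+HFM, where the groups overlapped. In intron 6, the 102 kb site had 18.2 to 63.6 with 1 CV+HFM call at 41.3, and the 106 kb site had no CV+HFM call. The last site, at 140 kb, was called in GF+HFM 1 alone.

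Ppard lies at chr17:28369699-28438414 and had fewer sites, but every GF+HFM library had a peak at 6 of the 8, and at least 2 CV+HFM libraries had one at each of those 6. At the 55.0 kb site in intron 3 (chr17:28423985-28425405) the percentiles were 99.4, 93.0, 88.8 and 67.2 in GF+HFM and 99.6, 76.6, 82.8 and 96.2 in CV+HFM. At the site 2.46 kb upstream (chr17:28366717-28367763) they were 98.2, 78.8, 94.6 and 93.5 against 98.8, 57.5, 52.3 and 52.6. The groups overlapped at both, and at the second CV+HFM 1 stood with the GF+HFM libraries and the other 3 below them. Those 3 libraries, and GF+HFM 2, had separate peaks at that site, of which the widest was ranked, while CV+HFM 1 had an unbroken peak. The 39.3 kb site, over 2 transcript starts in intron 2, had 69.6 to 95.5 in GF+HFM with CV+HFM calls at 20.2 and 3.04. The 37.5 kb site had 55.7 to 77.3 with calls at 72.2 and 55.0. The 57.8 kb site and the one 4.80 kb upstream, which lies in Def6, had 28.4 to 53.8 and 11.6 to 39.6 in GF+HFM, and the 2 CV+HFM libraries that called each had 54.8 and 56.2 and had 44.2 and 50.9. The remaining pair were each called in 1 GF+HFM library.

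Rxrb, at chr17:34168757-34175338, and Rxrg, at chr1:169528515-169569754, were close to bare. The 2 Rxrb sites lay 3.97 kb upstream (chr17:34164679-34164904) and 3.62 kb upstream (chr17:34165035-34165238), in neighbouring genes H2-Ke6 and Slc39a7, and were called in GF+HFM 1 alone at width percentiles of 24.8 and 17.9. The nearest merged site to Rxrg was 205 kb upstream, in Mgst3, and on the other side the nearest was 649 kb away. At the other 5 genes the next site outside the window lay 26.2 to 148 kb from the gene. At Ppara the next ones were 28.8 kb upstream, called in all 8 libraries, and 29.4 kb downstream.

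Sites called in more libraries were wider. The mean width percentile over callers had a median of 17.9 (range 1.79 to 54.1) for the 15 sites called in 1 library, 51.8 (18.5 to 91.1) for the 29 called in 2 to 7 and 86.7 (54.1 to 94.3) for the 10 called in all 8. The same order held for all merged sites, with medians of 12.5, 39.8 and 79.6. Of the 15 sites in 1 library, 8 were in GF+HFM 1, the longest list.

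**Figure D3:**
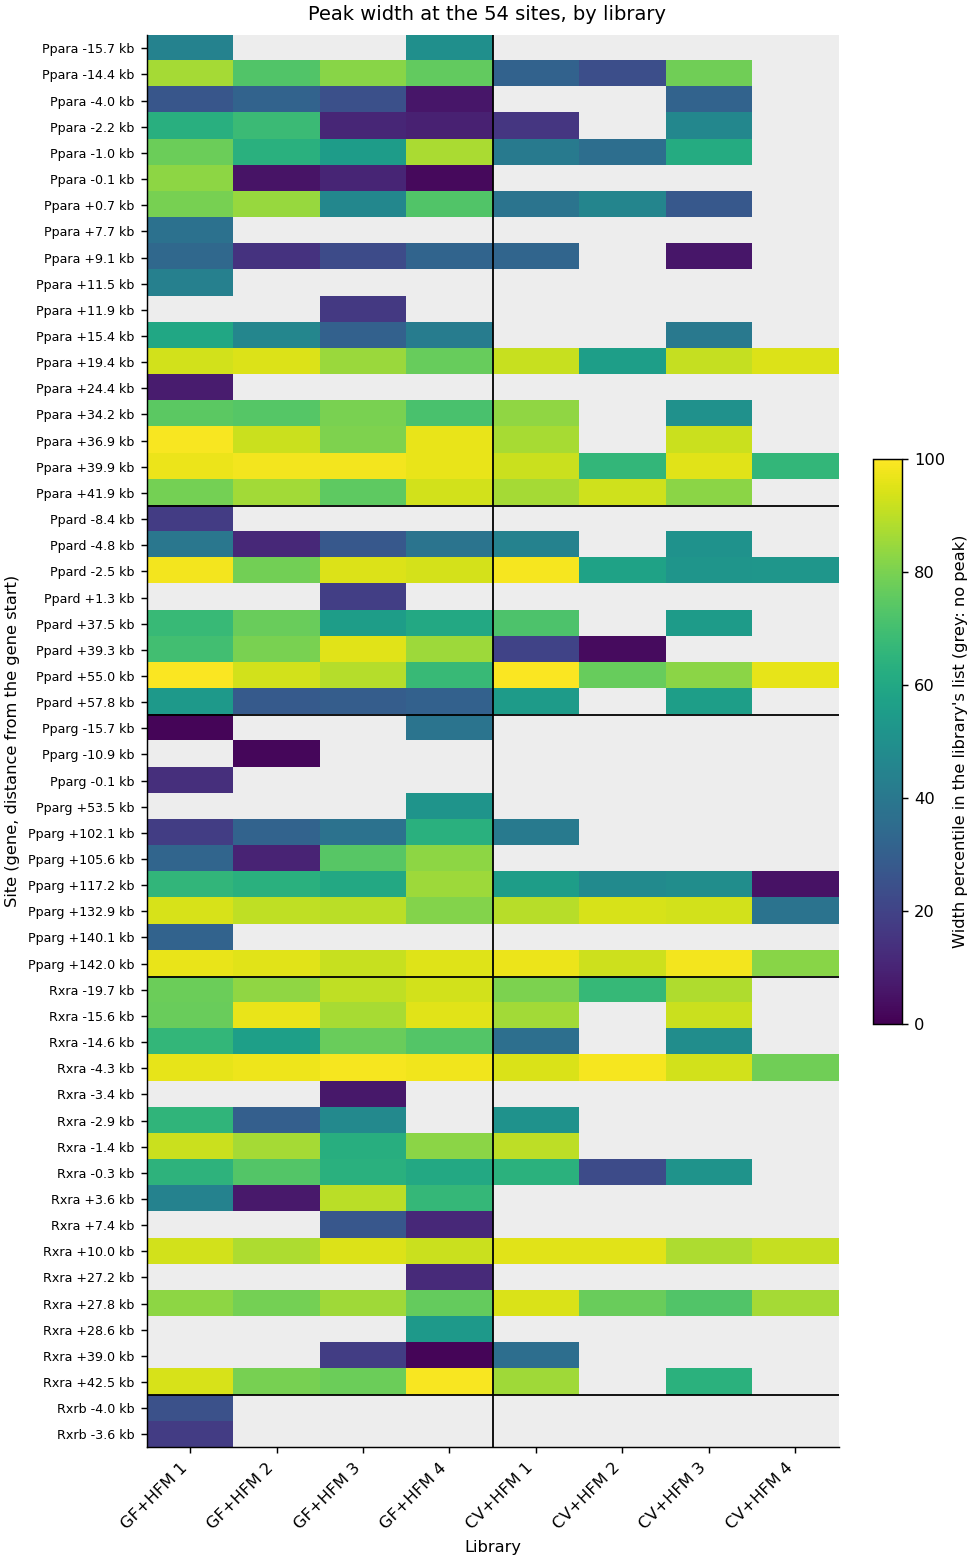
Width percentile of the widest peak at each of the 54 sites (rows, by gene and distance from its start) in each library (columns), from 0 to 100, with grey where the library had no peak. The CV+HFM 4 column is filled at 10 sites, and these rows are filled in every library.

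Calls were more frequent in GF+HFM at most of these sites, as over the genome. GF+HFM replicates 1 to 4 called 45, 36, 40 and 41 of the 54 sites and CV+HFM replicates 1 to 4 called 31, 17, 28 and 10. The groups did not overlap, and neither did the shares of all merged sites that these libraries called. Those shares were 76.4, 64.0, 72.1 and 74.0% in GF+HFM and 60.8, 19.2, 43.3 and 8.97% in CV+HFM. More GF+HFM than CV+HFM libraries called 44 sites (81.5%), the 2 groups were equal at 10, and no site had more calls in CV+HFM. Over all merged sites 86.5% had more calls in GF+HFM, so the share here was near the background. The same held for calls in GF+HFM alone, at 21 sites (38.9%) against 35.6% of all sites. All 4 GF+HFM libraries called 34 sites (63.0%), against 50.6%, and all 8 libraries called 10 (18.5%), against 7.56%. The last count was set by the shortest list: CV+HFM 4 called 10 of the sites, and each was called in all 8 libraries, as were 84.3% of the 4087 merged sites that it called. Leaving that library out, the remaining 7 all called 16 sites (29.6%), against 18.4% of all sites.

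Most CV+HFM calls were shared with GF+HFM libraries, as over the genome. All 17 sites called in CV+HFM 2 were called in every GF+HFM library, against 98.6 to 99.2% of all sites of that list in single GF+HFM libraries. All 28 called in CV+HFM 3 were too, against 95.6 to 98.1%. Of the 31 called in CV+HFM 1, GF+HFM 3 called 31 and each of the other GF+HFM libraries 30, against 84.1 to 90.8%. Of the 34 sites present in all 4 GF+HFM libraries, CV+HFM 1 to 4 called 29, 17, 28 and 10 (85.3, 50.0, 82.4 and 29.4%). For all sites with that pattern the shares were 91.6, 37.1, 78.0 and 17.0%, so CV+HFM 2, 3 and 4 called more of the receptor sites than of the genome's and CV+HFM 1 fewer. These differences were not tested.

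A call in 4 GF+HFM and 0 CV+HFM libraries, the largest difference the design allows, occurred at 3 sites (5.56%), against 2.79% of all merged sites. The first, as merged, spans the start of Ppara (chr15:85564982-85565678), with width percentiles of 82.9, 5.13, 10.3 and 2.56 in GF+HFM 1 to 4. It was wide in GF+HFM 1 and among the narrowest peaks of the other 3 lists. The second lies in intron 6 of Pparg (chr6:115416498-115417264), at 32.7, 10.1, 73.9 and 83.2. Its GF+HFM 1 peak (105.59 to 105.841 kb) and GF+HFM 2 peak (105.379 to 105.561 kb) share no base. They were joined through the wider peaks of GF+HFM 3 and 4, so no single base was called in all 4 GF+HFM libraries. The third lies in intron 2 of Rxra (chr2:27535058-27535970), at 44.2, 6.69, 89.7 and 66.5. At both of these GF+HFM 2 held the narrowest peak. Each had p = 0.0286 (Fisher's exact test, two-sided), which is the smallest p of this design, and an adjusted p of 0.824 over all 45552 sites, so none of them passed. When peaks within 200 bp were merged, the Ppara site joined its neighbours and was called in a 0.25 larger share of GF+HFM libraries (p = 1.00, Fisher's exact test). Counting only peaks of at least 300 bp, the difference in that share was 0.25 at the Ppara site and 0.5 at the other 2.

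The number of peaks in a window was compared between groups gene by gene. A merged site can hold more than 1 peak of a library, so these numbers can exceed the sites called. Ppara had 18, 14, 15 and 15 peaks in GF+HFM 1 to 4 and 11, 6, 13 and 2 in CV+HFM 1 to 4, with means of 15.5 ± 1.73 and 8.0 ± 4.97 (SD, n = 4). The groups did not overlap, and the difference of 7.5 peaks gave p = 0.0286 (exact permutation test, two-sided, 70 relabellings), the smallest it can give. Without any 1 of the GF+HFM libraries the exact permutation p was 0.0571 to 0.0857. Pparg had 9, 6, 6 and 7 against 4, 3, 3 and 3 peaks, or 7.0 ± 1.41 against 3.25 ± 0.5 (SD, n = 4), also without overlap (difference 3.75, exact permutation p = 0.0286). Over 14640 protein-coding genes with a peak, 11.3% had as small a p with fewer peaks in CV+HFM, and no gene passed the adjustment (Benjamini-Hochberg adjusted p = 0.252 for Ppara and Pparg, the smallest of any gene).

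Rxra had 13, 12, 15 and 15 against 12, 5, 9 and 3 peaks, or 13.8 ± 1.5 against 7.25 ± 4.03 (SD, n = 4, exact permutation p = 0.0571). The groups met at 12 peaks. Ppard had 8, 8, 8 and 7 against 7, 4, 7 and 3, or 7.75 ± 0.5 against 5.25 ± 2.06 (SD, n = 4, exact permutation p = 0.0857). They met at 7. Rxrb had its 2 peaks in GF+HFM 1 and Rxrg none, so neither gene showed a difference. CV+HFM mice ranged from 2 to 13 peaks at Ppara, and CV+HFM 4, with the fewest peaks in all, had the fewest or equal fewest at every gene with a CV+HFM peak.

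**Figure D4:**
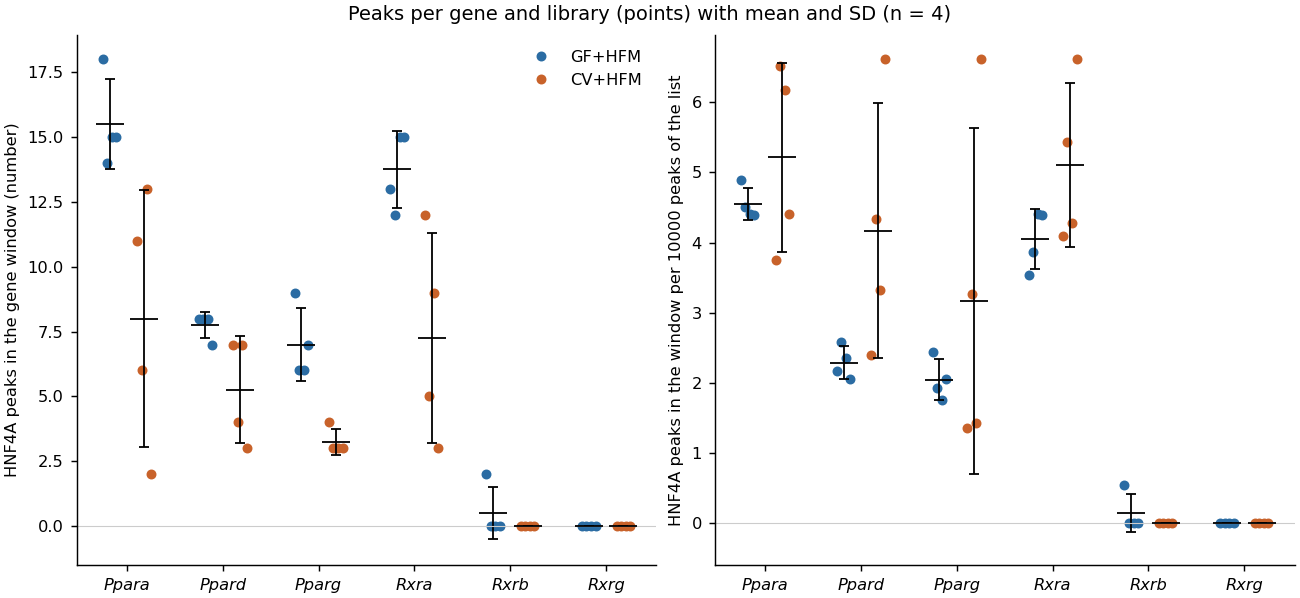
HNF4A peaks in the window of each gene by library (points), as a number (left) and per 10000 peaks of the library's list (right), with the mean and SD of 4 libraries in black. On the left the Ppara and Pparg groups do not overlap, with 14 to 18 against 2 to 13 and 6 to 9 against 3 to 4 peaks, and on the right the groups of every gene with CV+HFM peaks overlap.

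Relative to the length of each list the direction of the mean difference turned at Ppara, Pparg, Rxra and Ppard. At Pparg this depended on CV+HFM 4, and without that library GF+HFM was higher by 0.0305. Per 10000 peaks, Ppara had 4.89, 4.51, 4.41 and 4.39 in GF+HFM and 3.75, 6.52, 6.18 and 4.41 in CV+HFM (means 4.55 ± 0.231 and 5.21 ± 1.34, SD, n = 4, exact permutation p = 0.371). Pparg had 2.44, 1.93, 1.76 and 2.05 against 1.36, 3.26, 1.43 and 6.62 (exact permutation p = 0.514 with n = 4). At both genes CV+HFM values lay below and above the GF+HFM range, and at Ppara CV+HFM 4 lay within it. Rxra had means of 4.05 ± 0.429 and 5.10 ± 1.17 (SD, n = 4, exact permutation p = 0.171). Ppard had 2.17, 2.58, 2.35 and 2.05 against 2.39, 4.34, 3.33 and 6.62, the nearest to a separation (means 2.29 ± 0.23 and 4.17 ± 1.82, SD, n = 4, exact permutation p = 0.0571, adjusted p = 0.433 over all genes). None of the 6 genes reached p under 0.05, which 4.25% of genes did with higher values in CV+HFM. With every list reduced to its 4533 widest peaks, Ppara had 3, 4, 1 and 4 against 4, 3, 5 and 2 peaks, and the mean differences of Ppara, Ppard and Pparg changed sign (exact permutation p = 0.8, 1.00 and 0.571). Rxra kept its direction, at 4.5 ± 0.577 against 4.25 ± 1.26 peaks (SD, n = 4, exact permutation p = 1.00).

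The kind of identifier in the peak names, which ends in A in GF+HFM 1 and 2 and CV+HFM 1 to 3, was not explained in the sources used here, and CV+HFM 4 was the only CV+HFM library without the letter. Ppara had on average 16 against 10.0 peaks in libraries with the letter and 15.0 against 2.00 in those without. Pparg had 7.5 against 3.33 and 6.5 against 3.00. Among GF+HFM libraries Rxra went the other way, with 15.0 peaks without the letter and 12.5 with it. Relabelling within each kind gave p = 0.0333 for Ppara and Pparg (exact permutation test, n = 8, 30 relabellings, an alternative added after the data were seen). That is the smallest p these relabellings can give, and the groups were already known not to overlap at both genes. By the same exact permutation test p was 0.0667 for Rxra and 0.1 for Ppard.

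At the 10 sites called in all 8 libraries the rank of peak width was compared directly, over the 3445 sites of this kind in the genome. Ranks were turned into normal scores within each library and tested with limma, which called 4 of these sites (0.116%) at an adjusted p under 0.05. None of the 10 receptor sites was among them, with adjusted p-values from 0.425 to 0.887. At an unadjusted p under 0.05, 1 of the 10 and 398 of the 3445 sites (11.6%) passed. That one was the Ppara 39.9 kb site. Its percentiles among the 3445 sites were 82.7, 89.5, 90.6 and 82.6 in GF+HFM and 65.2, 40.5, 82.7 and 57.1 in CV+HFM. Its score differed by -0.79, as CV+HFM minus GF+HFM (SE 0.37, limma adjusted p = 0.425). CV+HFM 3 reached the GF+HFM range. The largest difference the other way was at the Rxra 27.8 kb site, at 34.9, 31.5, 45 and 24.9 against 74.9, 56.1, 29.0 and 82.6 (0.72, SE 0.39, limma adjusted p = 0.475). Of the 10 sites 4 had lower scores in CV+HFM, and the median difference was 0.30, against 47.4% of sites lower and a median of 0.04 over all 3445.

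Genes that work with these receptors were counted in the same windows. The 14 coregulator genes held 97 sites with a median of 5.0 per gene, 7 of them called in all 8 libraries (7.22%) and 5 in 4 GF+HFM and 0 CV+HFM libraries (5.15%). Ppargc1b, a coactivator of mitochondrial genes, had the most with 17, and Pprc1 and Ncoa3 the fewest with 1 each. The 11 genes of receptors that pair with RXR held 113 sites with a median of 12.0, of which 10 were called in all 8 libraries (8.85%) and 3 in 4 against 0 (2.65%). Vdr, the vitamin D receptor, and Thrb, a thyroid hormone receptor, had 23 each, more than Ppara, though the Thrb window is 417 kb long and that of Vdr 96.2 kb. Rarb and Rarg, retinoic acid receptors, had 1 each. Fabp1 and Fabp2, fatty acid carriers of the enterocyte, had 4 and 10 sites, with 3 of those of Fabp2 called in all 8 libraries. The shares at 4 against 0 and in all 8 can be read against 2.79% and 7.56% of all merged sites.

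Sites at markers of the labelled cells varied by gene. The 6 markers of intestinal epithelium (Vil1, Fabp2, Apoa4, Cdx2, Epcam and Sis) held 3 to 19 sites each, 63 in all, with 10 (15.9%) called in all 8 libraries. These 10 were at Apoa4, Fabp2 and Vil1, with none at Cdx2, Epcam or Sis, and Sis, a brush border enzyme, had 3 sites, as many as Cd79a, Pecam1, Acta2 and Des. The 7 markers of leukocytes, endothelium, mesenchyme and muscle held 0 to 3 each, 16 in all, with none called in all 8 libraries and none at Ptprc. These sites show where HNF4A was called and not how many cells of a type were present, and differences in cell makeup between the groups were not tested.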

How the data were processed

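HNF4A ChIP-seq peak lists of 8 mice, 4 per condition, were analysed and grouped by the sample labels. The authors aligned the reads by Bowtie2 (genome build mm9) and called peaks per mouse with MACS2 2.1.1.20160309 at a false discovery rate threshold of 0.05, against control libraries and with a bandwidth of 300 bp. The deposited lists hold chromosome, start, end and name only, with no count, fold or p-value, so width replaced peak strength. The receptor genes, the lists of other genes and the tests were chosen with earlier results of these data known.

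Positions were converted to counting from 1. The build was checked against NCBIM37, and no peak ended beyond a chromosome. Gene positions were read from GENCODE M1, and introns were numbered on the transcript of each gene with the most exons. Calls were compared by Fisher's exact test over all merged sites and peak numbers by exact permutation over all protein-coding genes with a peak, both two-sided with Benjamini-Hochberg adjustment (scipy 1.17.1). Width ranks were tested with limma 3.58.1. The tests were checked on simulated data. Every site of the 6 genes is accounted for, and those called in all 4 libraries of a group are named with widths. Sequence was printed for the site of each gene called in most libraries (ties by mean width percentile) and the Ppara intron 2 site at 9.12 kb. Other genes were named where they held the most and fewest sites of their list. Same-numbered mice were not paired by the labels. Alternatives were merging within 200 bp, 50% coverage for a call, peaks of at least 300 bp, lists of equal length, other windows, each library left out, and the replicate number as a block.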

Additional observations from a re-analysis of the deposited data

Results flagged for a closer look

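In groups of 4 libraries, a value was set apart where its gap to the nearest of the others was most of the group's range (Dixon's 95% limit). This held in 10 of 62 groups. A rate of 1 in 20 would give 3.10 of 62, but that rate assumes independent, normally spread values. Tied counts, and the same counts repeated per 10000, are not such values, so the 10 cannot be read as an excess. For numbers of peaks, single steps are enough: GF+HFM 4 had 7 peaks at Ppard where the others had 8, CV+HFM 1 had 4 at Pparg where the others had 3, and GF+HFM 1 had 2 peaks at Rxrb, or 0.543 per 10000, where the others had none.

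For width percentiles, GF+HFM 1 stood at 82.9 at the Ppara start site where the others had 2.56 to 10.3, and at 53.8 at the Ppard 57.8 kb site where they had 28.4 to 31.2. In CV+HFM, replicate 2 stood low at the Ppara 19.4 kb site (55.9, others 91.1 to 94.9), and replicate 1 stood high at the Ppard site 2.46 kb upstream (98.8, others 52.3 to 57.5). At that Ppard site the others each had separate peaks, of which the widest was ranked. Replicate 4 stood low at the Pparg 117 kb site (5.01, others 47.9 to 55.7) and at the Pparg 133 kb site (38.0, others 89.1 to 94.1). CV+HFM 4 had the shortest list, with 4533 peaks of a median width of 103 bp, and its part in these values was not tested.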

How the results depend on the processing

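Width stands in for strength here, and depth per library is unknown, so an absent call cannot be told from a shallow library. With lists of equal length the GF+HFM minus CV+HFM difference in peaks became -0.5 at Ppara, -0.25 at Ppard and -0.5 at Pparg, and that per 10000 peaks became 0.552 at Rxra. The sites fell to 20, of which 7 were called in a larger share of GF+HFM and 7 of CV+HFM libraries, 4 in all libraries and 0 in 4 against 0. Sites numbered 31 in gene bodies alone, with 25 more often called in GF+HFM and 6 in all libraries, and windows of 50 kb held 1 site more often called in CV+HFM. No site was called in all libraries with 50% coverage (0) or with peaks of at least 300 bp (0). With those peaks the difference at Ppard was 4.75 (exact permutation p = 0.0286) and at Pparg 2.75 (exact permutation p = 0.0857), in gene bodies it was 5.00 at Ppara (exact permutation p = 0.0571), and with 50 kb windows 8.0 at Rxra (exact permutation p = 0.0286). Per 10000, Pparg changed sign in gene bodies (0.055) and Rxrb with 50 kb windows (-0.0284).

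Leaving out 1 library at a time gave 47 to 54 sites, 10 to 16 called in every library (16 without CV+HFM 4) and 3 to 5 at the extreme difference (5 without CV+HFM 1 or CV+HFM 3). Differences ran from 5.50 to 9.17 peaks at Ppara (exact permutation p 0.0286 to 0.0857, lost without any 1 GF+HFM library), 3.08 to 4.08 at Pparg and 5.08 to 8.08 at Rxra (p = 0.0286 by exact permutation without CV+HFM 1). Per 10000 they ran from -2.48 to -1.07 at Ppard (exact permutation p = 0.0286 without CV+HFM 1) and from -1.72 to 0.0305 at Pparg, the last without CV+HFM 4. Over the 3445 sites limma called 0 to 21. The difference in score at the Pparg 133 kb site, here CV+HFM minus GF+HFM, ran from -0.0351 (without CV+HFM 2) to 0.533. Same-numbered libraries correlated at 0.0534, 0.0746, -0.0776 and 0.138 in width rank, and libraries of different number at -0.132 to 0.137. These values cannot show whether same-numbered mice were handled together, which was not tested. With the replicate number as a block, differences of 7.5 at Ppara and 3.75 at Pparg had p = 0.125 (exact sign permutation, the smallest it can give), and limma called 0 of the 10 sites. The cause of these changes was not tested beyond what each alternative alters.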
